A study of Mus musculus with 16 samples.

Results

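The genes described here belong to the interleukin 1 and Toll-like receptor system, which senses alarm signals and microbes. They were chosen by name as members of the system, with earlier results of these data known: the ligands and the antagonist Il33, Il1b, Il18 and Il1rn, the receptors Il1rl1, Il1r1, Tlr2, Tlr3 and Tlr4, and the shared adaptor Myd88. Each was read from array probes whose transcript maps to that gene symbol. All 10 of the 10 had a probe and were tested, among 15394 tested genes in all. The samples were cultures of primary lung fibroblasts, freed by enzymatic digestion from the lungs of female mice aged 8 weeks that were either knockout for meflin (KO) or wild type C57BL/6J (WT). Meflin, encoded by Islr, is a surface protein of mesenchymal cells. The 4 groups were KO cells with recombinant TGF-β1 at 5 ng/ml for 48 h, KO cells without it (called vehicle here), WT cells with the same TGF-β1 treatment, and WT cells without it, with 4 arrays from independent experiments in each. How the knockout allele was made, whether mice were pooled and the passage of the cells are not given in the sources used here.

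Ligands of the interleukin 1 family bind a specific receptor chain that pairs with an accessory chain, and Toll-like receptors bind microbial molecules. Both receptor types carry the same kind of intracellular domain and, apart from Tlr3, recruit Myd88, which passes the signal through IRAK kinases and TRAF6 to the transcription factor NF-κB. Fibroblasts respond to interleukin 1 with chemokines, prostaglandins and matrix proteases, and TGF-β1 drives them toward matrix-producing myofibroblasts.

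All levels below are normalized log2 signals of 1 probe, so that a step of 1 is a doubling, and levels are not compared between genes because each probe has its own brightness. Differences were tested with limma across all tested genes, with Benjamini-Hochberg adjustment, and an adjusted p under 0.05 counted as a change; values after ± are standard errors of a log2 difference, or SD where so named. The array's Islr probe was well above background on 0 of 4 arrays in both KO groups and on 4 of 4 in both WT groups. Islr was at least 19.7-fold lower in KO than in WT with TGF-β1 and at least 138-fold lower with vehicle, against the lowest signal that counts as above background, and in WT cells TGF-β1 itself lowered Islr by 2.48 ± 0.07 on the log2 scale (adjusted p = 2.6e-13). Arrays of a group correlated at 0.996 or more over the tested genes, and principal component 1 carried 82.3% of the variance. The 75th percentile of intensity lay between 382 and 446 in KO TGF-β1, 470 and 519 in KO vehicle, 429 and 452 in WT TGF-β1 and 486 and 526 in WT vehicle, so the TGF-β1 arrays were dimmer before scaling.

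All 8 fibroblast markers tested, collagen genes and Pdgfra among them, were well above background on every array. With TGF-β1, 4 of the 8 rose and 4 fell in KO cells, and 5 rose and 3 fell in WT cells. Of all tested genes, 46.6% rose and 35.9% fell in KO cells, and 41.3% rose and 27.3% fell in WT cells. Pdgfra, which fell, averaged 11.65 in KO TGF-β1 and 13.86 in KO vehicle cells, against 13.31 in WT TGF-β1 and 13.75 in WT vehicle cells. Markers of other cells were present too. All 15 macrophage markers were well above background in every group, and their summed linear signal was 106180 to 116460 in KO TGF-β1, 192940 to 201460 in KO vehicle, 132190 to 140690 in WT TGF-β1 and 228600 to 266190 in WT vehicle. The 8 endothelial markers summed to 1398 to 1503 in KO TGF-β1, 4278 to 4472 in KO vehicle, 2161 to 2296 in WT TGF-β1 and 4787 to 5103 in WT vehicle. The 5 mesothelial markers summed to 11505 to 13257 in KO TGF-β1, 24933 to 25521 in KO vehicle, 25082 to 26093 in WT TGF-β1 and 27537 to 29014 in WT vehicle. The 7 mast cell markers with a probe summed to 172 to 259 in KO TGF-β1, 671 to 746 in KO vehicle, 241 to 284 in WT TGF-β1 and 600 to 965 in WT vehicle. Of these, Fcer1a and Cma1 were above background on 0 arrays of any group, and Cpa3 only on 2 of 4 WT vehicle arrays. Mcpt4 was above background only on 1 of 4 KO TGF-β1 arrays. Kit, Tpsb2 and Ms4a2 were above background on 4 of 4 arrays in both vehicle groups and all fell with TGF-β1 in both genotypes. The 9 epithelial markers summed to 10543 to 11706 in KO TGF-β1, 6649 to 6863 in KO vehicle, 10229 to 11022 in WT TGF-β1 and 7490 to 8148 in WT vehicle, and Krt8, Krt18, Krt19 and Cdh1 were above background on 4 of 4 arrays in every group. The markers of lung epithelium went the other way. Sftpc averaged 1.87 in KO TGF-β1 and 8.14 in KO vehicle cells, against 3.77 in WT TGF-β1 and 8.57 in WT vehicle cells, and it was above background on 0, 4, 1 and 4 arrays of these groups in that order. Sftpb and Scgb1a1 were above background on 0 of 4 arrays in both TGF-β1 groups and on 4 of 4 in both vehicle groups, and Nkx2-1 was above background on 0 arrays. Macrophage, endothelial and mast cell sums and the lung epithelial markers were thus lower with TGF-β1 in both genotypes, together with most of the 10 genes, and mesothelial sums stood apart in KO TGF-β1. The part of these cells in the results below was not tested. In such cultures fewer cells of a type and less RNA per cell cannot be told apart.

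TGF-β1 lowered most of the system, and lowered it further in KO cells. In KO cells 10 of 10 genes changed, 9 lower and Il1b higher, against 82.5% of all tested genes called (46.6% higher and 35.9% lower). In WT cells 9 of 10 changed, 8 lower and Myd88 higher, against 68.6% of all tested genes (41.3% higher and 27.3% lower). The median log2 difference of the 10 genes was −1.42 in KO cells, where that of all tested genes was 0.10, and −0.76 in WT cells, where that of all tested genes was 0.08. Because most genes on the array responded, the number of calls alone says little, and the sizes and directions carry the description. Of the 10 genes, 6 fell at least 2-fold in KO cells, against 13.6% of all tested genes, and 3 did so in WT cells, against 6.45%.

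The response itself differed between genotypes for 9 of 10 genes, by the interaction term that compares the KO response with the WT response, against 58.2% of all tested genes (31.7% positive and 26.5% negative). The difference was negative for 8 of them and positive for Il1b, and Tlr2 did not pass. With TGF-β1 present, KO and WT cells differed in 10 of 10 genes, with Il1b higher in KO and 9 lower, against 70.2% of all tested genes (39.6% higher and 30.5% lower). With vehicle they differed in 2 of 10, Il1b and Il18, both lower in KO, against 13.2% of all tested genes (7.07% higher and 6.16% lower). The comparisons with TGF-β1 and with vehicle share their arrays with the 2 responses, so these counts are not independent of each other.

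**Figure D1:**
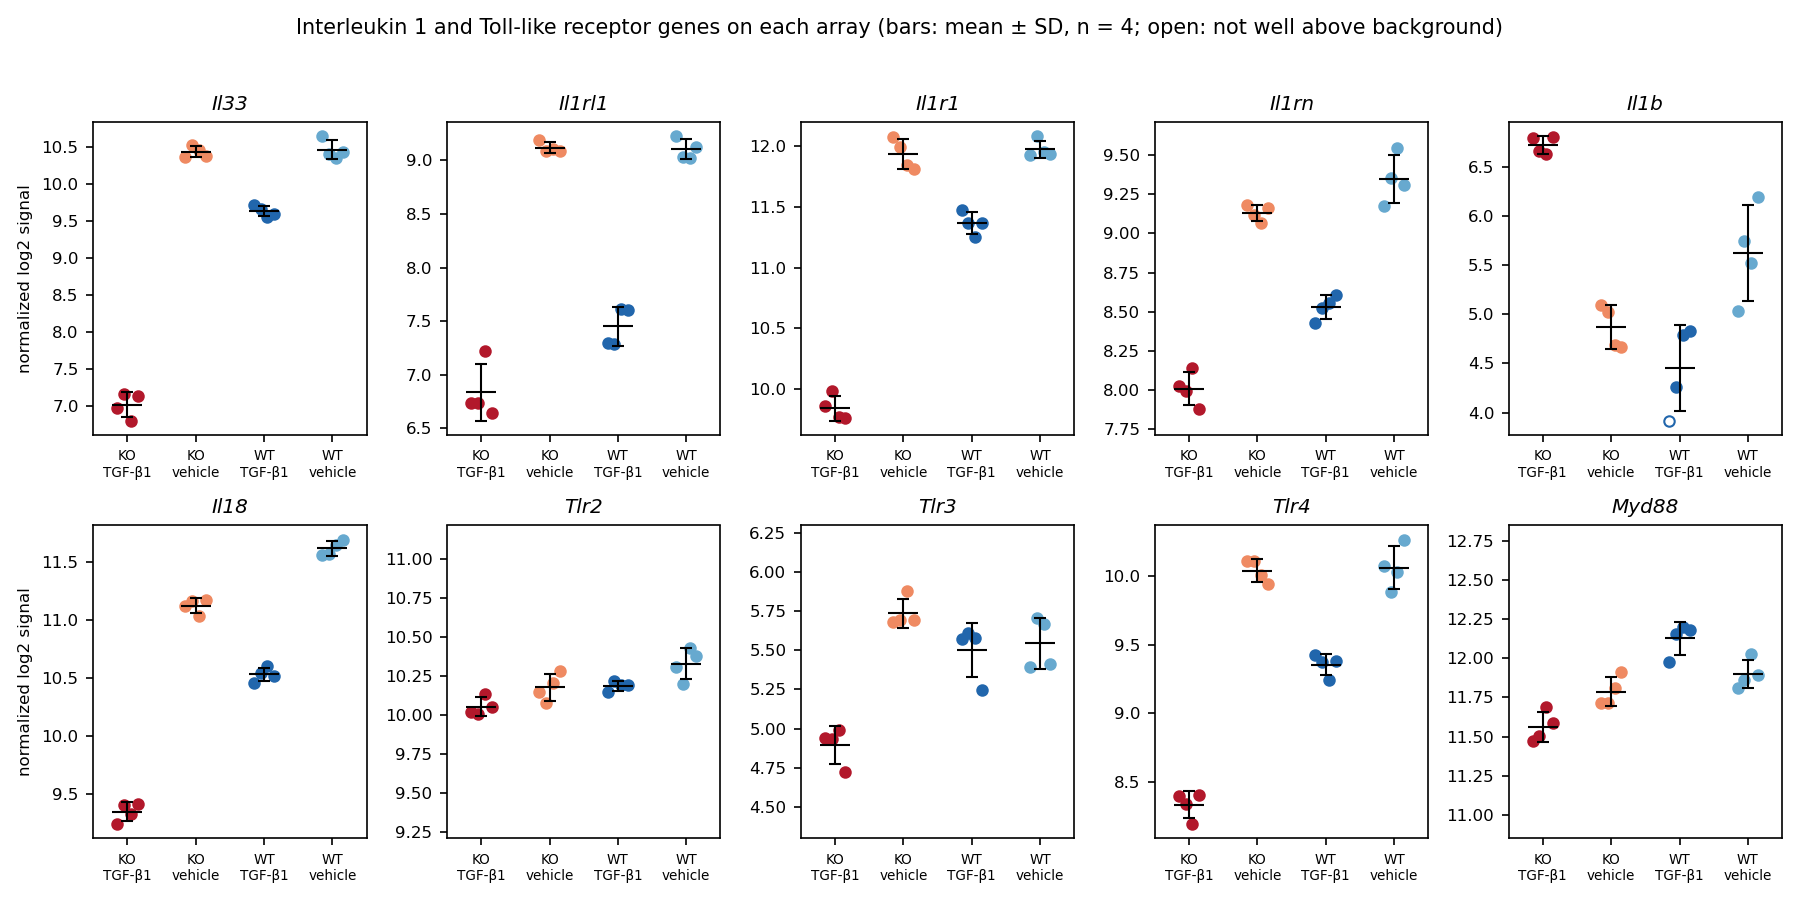
Normalized log2 signal (vertical axes, own range for each gene and a span of at least 2) of the 10 genes on each of 4 arrays in KO TGF-β1, KO vehicle, WT TGF-β1 and WT vehicle cells, left to right; points are arrays, an open point was not well above background, and bars give mean ± SD. Il33 is lowest in KO TGF-β1 cells and Il1b highest there, while the 4 groups of Tlr2 lie within less than 1 unit of each other.

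Il33 encodes interleukin 33, a nuclear cytokine that stromal and epithelial cells release when damaged. Its signal was 6.96, 7.16, 6.80 and 7.13 in KO TGF-β1 cells and 10.37, 10.53, 10.47 and 10.39 in KO vehicle cells. In WT cells it was 9.72, 9.67, 9.56 and 9.59 with TGF-β1 and 10.65, 10.41, 10.36 and 10.44 with vehicle. The KO TGF-β1 arrays lay below all others, the WT TGF-β1 arrays came next, and the vehicle arrays of both genotypes overlapped. Il33 fell 10.7-fold with TGF-β1 in KO cells (log2 difference −3.43 ± 0.08, adjusted p = 6.44e-15) and 1.78-fold in WT cells (−0.83 ± 0.08, adjusted p = 2.81e-07). The 2 responses differed by −2.60 ± 0.11 (adjusted p = 8.23e-11). With TGF-β1 the KO level was 6.15-fold below the WT level, whereas with vehicle the difference was −0.02 ± 0.08 (adjusted p = 0.88). A second, dimmer Il33 probe, above background on 3 of 4 KO TGF-β1 arrays, fell by 2.38 ± 0.12 in KO and by 0.62 ± 0.12 in WT cells.

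Il1b, which encodes interleukin 1β, a cytokine mostly of myeloid cells that is cut to its active form by caspase 1, went the other way in KO cells. Its signal was 6.80, 6.66, 6.63 and 6.80 in KO TGF-β1 cells, against 5.09, 5.03, 4.69 and 4.67 in KO vehicle cells. In WT cells it was 3.92, 4.27, 4.79 and 4.83 with TGF-β1, against 5.03, 5.75, 5.52 and 6.20 with vehicle. All 4 KO TGF-β1 arrays were above every other array, and within WT cells the TGF-β1 arrays were all below the vehicle arrays. Il1b rose 3.62-fold with TGF-β1 in KO cells (log2 difference 1.86 ± 0.23, adjusted p = 1.87e-06) and fell 2.26-fold in WT cells (−1.17 ± 0.23, adjusted p = 0.000304), so that the responses differed by 3.03 ± 0.32 (adjusted p = 1.39e-06). It was the only one of the 10 genes that rose in KO cells. These signals were dim, and the probe was well above background on 3 of 4 arrays in WT TGF-β1 cells and on all arrays elsewhere. With the normexp background correction the sizes shrank to 0.95 in KO, −0.30 in WT and 1.26 for their difference, all still past the threshold. A second Il1b probe was above background on 4 of 4 arrays in KO TGF-β1, 0 in KO vehicle, 0 in WT TGF-β1 and 2 in WT vehicle cells, so no difference is given for it.

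The promoters of Il33 and Il1b are printed because these ligands moved farthest down and up in KO cells, and that of Tlr2 because it moved least. Each window runs from 250 bases before to 50 after a transcription start, 5′ to 3′ on the gene's strand, from RefSeq on GRCm38.p6; Il33 has a pair of starts, at chr19:29924863-29925162 and chr19:29945540-29945839 on the + strand, Il1b lies at chr2:129371090-129371389 on the − strand, and Tlr2 at chr3:83841559-83841858 on the − strand. Capitals mark TATA box letters in Il33 and Il1b and NF-κB consensus letters in Tlr2.
Il33 start 1: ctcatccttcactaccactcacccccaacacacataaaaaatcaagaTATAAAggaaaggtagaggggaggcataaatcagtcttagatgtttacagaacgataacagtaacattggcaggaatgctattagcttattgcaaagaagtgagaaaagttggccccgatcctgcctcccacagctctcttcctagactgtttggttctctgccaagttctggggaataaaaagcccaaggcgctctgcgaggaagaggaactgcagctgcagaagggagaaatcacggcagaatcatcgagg
Il33 start 2: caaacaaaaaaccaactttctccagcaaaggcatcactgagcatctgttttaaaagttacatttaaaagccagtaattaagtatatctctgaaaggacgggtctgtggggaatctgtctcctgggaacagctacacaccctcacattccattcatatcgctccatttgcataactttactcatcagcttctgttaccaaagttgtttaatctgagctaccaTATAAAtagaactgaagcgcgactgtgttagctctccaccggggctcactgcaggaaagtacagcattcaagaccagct
Il1b: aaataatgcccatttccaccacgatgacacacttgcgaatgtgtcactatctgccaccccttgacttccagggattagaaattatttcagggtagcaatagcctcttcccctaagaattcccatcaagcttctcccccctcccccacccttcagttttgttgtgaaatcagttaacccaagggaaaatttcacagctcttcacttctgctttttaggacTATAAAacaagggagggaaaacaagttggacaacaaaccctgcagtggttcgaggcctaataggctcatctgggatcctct
Tlr2: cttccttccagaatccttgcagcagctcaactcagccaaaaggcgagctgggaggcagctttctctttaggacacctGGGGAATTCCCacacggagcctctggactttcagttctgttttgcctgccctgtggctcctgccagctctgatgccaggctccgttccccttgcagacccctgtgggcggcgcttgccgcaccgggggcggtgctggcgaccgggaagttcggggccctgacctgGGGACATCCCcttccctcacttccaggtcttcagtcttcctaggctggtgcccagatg
Counting the transcription start as 0, TATAAA began at −31 in Il1b, at −29 in the second Il33 promoter and at −203 in the first. The Tlr2 window held the NF-κB consensus at −173 and −172, which overlap, and at −8. Over the 9 genes with a promoter in the table, 14 promoters were searched on both strands. TATAAA was in 6 of the 14, against 13.6% of all 32851 mouse promoters of this length, and the NF-κB consensus in 3 (a second Il1r1 promoter, Tlr2 and Tlr3), against 4.51%. The SMAD motif CAGACA was in 1 (Il1r1), against 21.0%, an AP-1 motif, TGACTCA or TGAGTCA, in 1 (Il1rn), against 5.2%, and the interferon response core in 1 (Myd88), against 3.44%. The Il33, Il1rl1, Il1b, Il18 and Myd88 promoters held no NF-κB, AP-1 or SMAD letters in these windows. Several genes have more than 1 promoter here, and those of Il1rn overlap in part, so the 14 are not separate genes. A match of letters is a description and not evidence of a bound site.

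Il18 encodes interleukin 18, another cytokine activated by caspase 1. Its signal was 9.24, 9.41, 9.32 and 9.41 in KO TGF-β1 cells and 11.12, 11.16, 11.03 and 11.17 in KO vehicle cells, against 10.46, 10.55, 10.60 and 10.51 in WT TGF-β1 cells and 11.56, 11.57, 11.65 and 11.69 in WT vehicle cells. No pair of groups overlapped, and the order from low to high was KO TGF-β1, WT TGF-β1, KO vehicle and WT vehicle. Il18 fell 3.43-fold with TGF-β1 in KO cells (−1.78 ± 0.05, adjusted p = 4.97e-14) and 2.13-fold in WT cells (−1.09 ± 0.05, adjusted p = 6.22e-11), and the responses differed by −0.69 ± 0.07 (adjusted p = 9.02e-07).

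Il1rn encodes the interleukin 1 receptor antagonist, which occupies Il1r1 without signalling. It averaged 8.01 ± 0.11 in KO TGF-β1 cells and 9.13 ± 0.05 in KO vehicle cells, against 8.53 ± 0.08 in WT TGF-β1 cells and 9.35 ± 0.15 in WT vehicle cells (SD, n = 4 each). The TGF-β1 groups did not overlap with the vehicle groups or with each other, and the vehicle groups overlapped. Its fall was 2.18-fold in KO cells (−1.12 ± 0.07, adjusted p = 8.39e-10) and 1.76-fold in WT cells (−0.82 ± 0.07, adjusted p = 9.3e-08). The responses differed by −0.31 ± 0.10 (adjusted p = 0.0168), which did not pass with the mean over its probes (−0.31, adjusted p = 0.11) or on slide 2 alone (−0.26, adjusted p = 0.22). In KO cells with TGF-β1, therefore, the signal of Il1b was higher and that of its antagonist lower than in WT cells with TGF-β1, by 2.27 ± 0.23 (adjusted p = 3.59e-07) and −0.52 ± 0.07 (adjusted p = 1.06e-05). A second, dimmer Il1rn probe fell by 1.04 ± 0.18 in KO and by 0.73 ± 0.18 in WT cells but did not pass between KO and WT cells with TGF-β1 (−0.33 ± 0.18, adjusted p = 0.13) or for the difference of the responses (−0.31 ± 0.26, adjusted p = 0.34).

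Il1rl1, the receptor for interleukin 33, fell strongly in both genotypes. Its signal was 6.74, 6.74, 7.22 and 6.64 in KO TGF-β1 cells and 9.19, 9.09, 9.11 and 9.09 in KO vehicle cells, against 7.30, 7.29, 7.61 and 7.60 in WT TGF-β1 cells and 9.23, 9.04, 9.03 and 9.13 in WT vehicle cells. KO replicate 3 with TGF-β1 stood above the other 3 of its group but below every WT TGF-β1 array. The fall was 4.88-fold in KO cells (−2.29 ± 0.11, adjusted p = 3.64e-11) and 3.15-fold in WT cells (−1.65 ± 0.11, adjusted p = 5.23e-09), the largest fall of the 10 genes in WT cells. The responses differed by −0.63 ± 0.16 (adjusted p = 0.00304), or by −0.37 with normexp, and on slide 2 alone the difference did not pass (−0.70 ± 0.25, adjusted p = 0.057). The gene makes a membrane receptor and a soluble form from different transcripts. A probe designed to another Il1rl1 transcript than the first fell by 1.03 ± 0.11 in KO and by 0.60 ± 0.11 in WT cells, and a further probe to that other transcript was above background on 0 arrays. Which form each probe reads was not determined. The signals of Il33 and of the first Il1rl1 probe were thus both lowest in KO TGF-β1 cells. There they were below their WT TGF-β1 levels by 2.62 ± 0.08 and 0.62 ± 0.11 on the log2 scale.

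Il1r1, the signalling receptor for interleukin 1α and 1β, was 9.86, 9.98, 9.77 and 9.76 in KO TGF-β1 cells and 12.081, 11.998, 11.849 and 11.817 in KO vehicle cells. In WT cells it was 11.48, 11.36, 11.25 and 11.37 with TGF-β1 and 11.93, 12.08, 11.95 and 11.94 with vehicle. Both TGF-β1 groups lay below both vehicle groups, the vehicle groups overlapped, and the KO TGF-β1 arrays were more than 1 unit below the WT TGF-β1 arrays. Il1r1 fell 4.28-fold in KO cells (−2.10 ± 0.07, adjusted p = 3.55e-13) and 1.53-fold in WT cells (−0.61 ± 0.07, adjusted p = 1.58e-06), a difference of −1.49 ± 0.10 (adjusted p = 7.84e-09). So the KO TGF-β1 cells combined the highest Il1b signal of the 4 groups with the lowest Il1r1 signal.

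Il1r1 and Il1rl1 lie in a cluster of related receptor genes on mouse chromosome 1, in the order Il1r2, Il1r1, Il1rl2, Il1rl1, Il18r1 and Il18rap in the reference. Il18r1, the ligand-binding chain for interleukin 18, fell by 4.10 ± 0.16 in KO cells (adjusted p = 2.01e-12), where it was above background on 1 of 4 TGF-β1 arrays, and by 1.36 ± 0.16 in WT cells (adjusted p = 1.98e-06). Il1r2, a decoy receptor that binds interleukin 1 without signalling, averaged 6.11 ± 0.22 in KO TGF-β1 cells, against 8.27 ± 0.06 in KO vehicle, 8.27 ± 0.09 in WT TGF-β1 and 8.27 ± 0.09 in WT vehicle cells (SD, n = 4 each). The Il1r2 signal was lower in KO TGF-β1 cells than in the other groups, with a response of −2.16 ± 0.09 in KO cells (adjusted p = 3.72e-12), −0.00 ± 0.09 in WT cells (adjusted p = 0.97) and a difference of −2.15 ± 0.12 (adjusted p = 1.73e-09). Il1rl2, the receptor for interleukin 36, was dim and fell by 0.48 ± 0.13 in KO and by 0.39 ± 0.13 in WT cells, with a difference of −0.08 ± 0.19 (adjusted p = 0.73). Of the flanking genes, Map4k4, a kinase gene next to Il1r2, gave −0.64 in KO and −0.06 in WT cells, and Slc9a4, a sodium and proton exchanger gene, gave −1.86 in KO and −2.11 in WT cells. Mfsd9, beyond Slc9a4, did not fall and gave 0.09 in KO and 0.22 in WT cells. The accessory chain Il1rap, whose gene is elsewhere, rose by 0.53 ± 0.06 in KO (adjusted p = 5.1e-07) and by 0.33 ± 0.06 in WT cells (adjusted p = 0.000134).

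**Figure D2:**
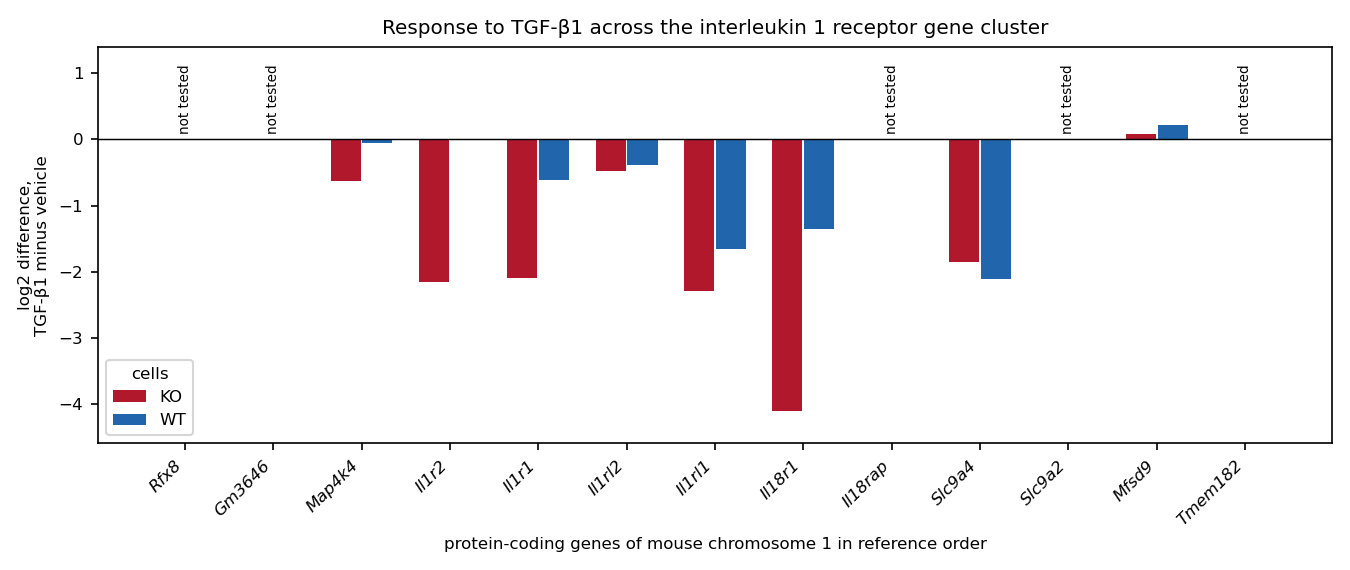
Log2 difference, TGF-β1 minus vehicle (vertical axis), in KO (left bar) and WT (right bar) cells for the protein-coding genes around the interleukin 1 receptor cluster of mouse chromosome 1, in reference order and not to distance. Il18r1 falls farthest in KO cells (−4.10) and Il1r2 has a KO bar of −2.16 and a WT bar near 0; genes without a kept probe are marked as not tested.

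Of Tlr2, Tlr3 and Tlr4, Tlr4, which recognizes bacterial lipopolysaccharide, fell most. Its signal was 8.39, 8.34, 8.19 and 8.40 in KO TGF-β1 cells and 10.11, 10.11, 10.01 and 9.95 in KO vehicle cells, against 9.43, 9.37, 9.24 and 9.38 in WT TGF-β1 cells and 10.07, 9.88, 10.03 and 10.27 in WT vehicle cells. The vehicle groups overlapped, and the KO TGF-β1 arrays were all lower than the WT TGF-β1 arrays. The fall was 3.28-fold in KO cells (−1.71 ± 0.07, adjusted p = 8.85e-12) and 1.64-fold in WT cells (−0.71 ± 0.07, adjusted p = 6.96e-07), with a difference of −1.0 ± 0.10 (adjusted p = 1.22e-06). A second Tlr4 probe, above background on 2 of 4 KO TGF-β1 arrays, gave −1.66 ± 0.18 in KO and −0.63 ± 0.18 in WT cells.

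Tlr3, which senses double-stranded RNA in endosomes and signals without Myd88, was dim. Its signal was 4.94, 4.93, 4.99 and 4.72 in KO TGF-β1 cells and 5.68, 5.70, 5.88 and 5.70 in KO vehicle cells, against 5.57, 5.61, 5.58 and 5.24 in WT TGF-β1 cells and 5.39, 5.70, 5.67 and 5.41 in WT vehicle cells. The KO TGF-β1 arrays were below all others, and the 2 WT groups overlapped. Tlr3 fell by 0.84 ± 0.09 in KO cells (adjusted p = 7.42e-07), while in WT cells the difference was −0.04 ± 0.09 (adjusted p = 0.71); the responses differed by −0.80 ± 0.13 (adjusted p = 0.000123). With normexp these KO and interaction values were −0.15 and −0.22 and the difference between KO and WT cells with TGF-β1 was −0.06, no longer past the threshold (adjusted p = 0.24). A second, dimmer Tlr3 probe, above background on 2 of 4 KO TGF-β1 arrays, gave −0.14 ± 0.18 in KO cells (adjusted p = 0.49), so the probes disagree.

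Tlr2, which recognizes bacterial lipoproteins, hardly moved. It averaged 10.05 ± 0.06 in KO TGF-β1 and 10.18 ± 0.09 in KO vehicle cells, against 10.19 ± 0.03 in WT TGF-β1 and 10.33 ± 0.10 in WT vehicle cells (SD, n = 4 each). TGF-β1 and vehicle arrays overlapped in both genotypes. The falls were 1.09-fold in KO (−0.12 ± 0.05, adjusted p = 0.0421) and 1.1-fold in WT cells (−0.14 ± 0.05, adjusted p = 0.0263), and their difference was 0.02 ± 0.07 (adjusted p = 0.84). The call in KO cells was lost without replicate 1, 2 or 4 of KO TGF-β1, 3 or 4 of KO vehicle, 3 or 4 of WT TGF-β1 or 1 of WT vehicle (adjusted p from 0.0502 to 0.14). The call in WT cells was lost without replicate 1 of WT TGF-β1 or replicate 3 or 4 of WT vehicle (adjusted p from 0.0644 to 0.0906). The call between KO and WT cells with TGF-β1 (−0.13 ± 0.05, adjusted p = 0.0367) was lost without replicate 1, 2 or 4 of KO TGF-β1 or 2, 3 or 4 of WT TGF-β1 (adjusted p from 0.0642 to 0.0907).

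Myd88 moved in opposite directions in the 2 genotypes, by small amounts. Its signal was 11.47, 11.50, 11.69 and 11.59 in KO TGF-β1 cells and 11.71, 11.72, 11.81 and 11.91 in KO vehicle cells, against 11.98, 12.16, 12.20 and 12.18 in WT TGF-β1 cells and 11.81, 11.86, 12.03 and 11.90 in WT vehicle cells. The KO TGF-β1 arrays were below the other groups, and in WT cells 1 vehicle array lay among the TGF-β1 arrays. Myd88 fell by 0.23 ± 0.07 in KO cells (adjusted p = 0.006) and rose by 0.23 ± 0.07 in WT cells (adjusted p = 0.00696), a difference of −0.45 ± 0.09 (adjusted p = 0.000795). With quantile normalization, which lowered the median of all genes in the KO response to −0.01 where it was 0.10, the KO value was −0.45 and the WT value 0.11, which did not pass (adjusted p = 0.11).

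**Figure D3:**
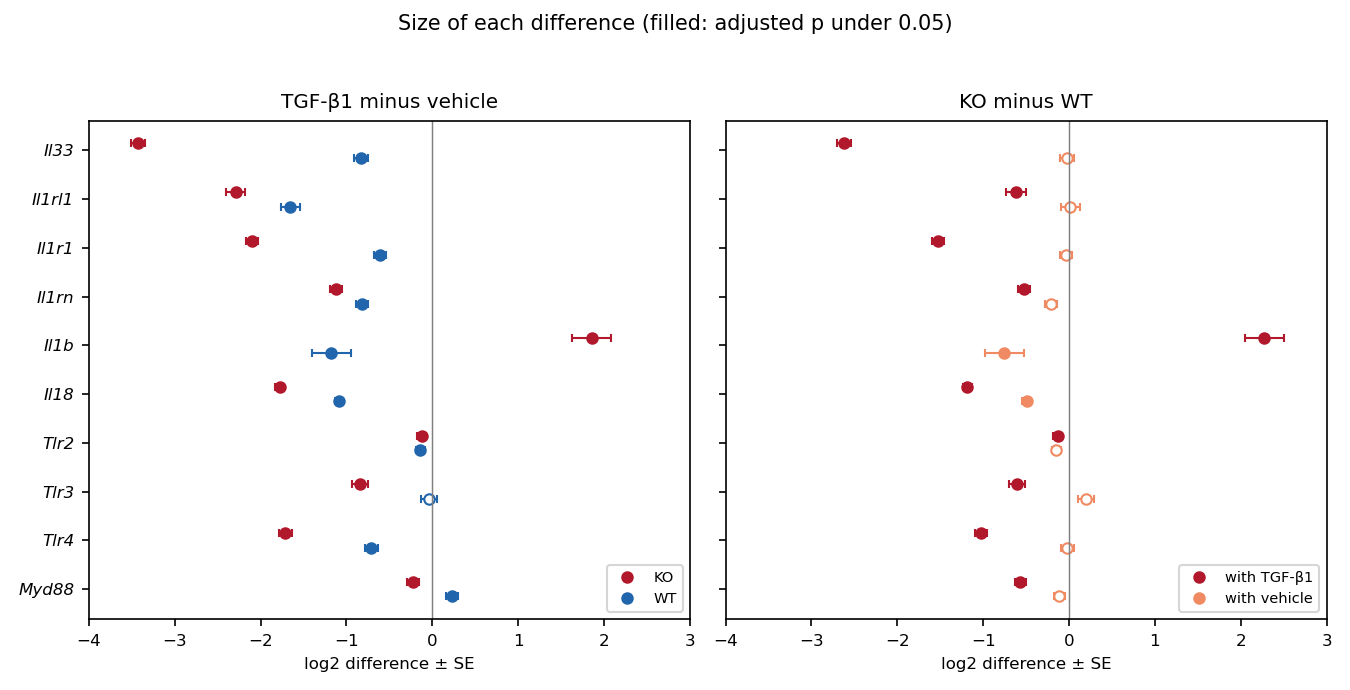
Log2 differences ± SE (horizontal axes) of the 10 genes, TGF-β1 minus vehicle in KO (upper point) and WT cells on the left, and KO minus WT with TGF-β1 (upper point) and with vehicle on the right; filled points have an adjusted p under 0.05. In the right panel the vehicle points lie near 0, apart from Il1b (−0.76) and Il18 (−0.49), and the TGF-β1 points run from −2.62 for Il33 to 2.27 for Il1b.

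Without TGF-β1 the genotypes were close for most of the system. Il18 was 1.41-fold lower in KO than in WT vehicle cells, with no overlap (−0.49 ± 0.05, adjusted p = 1.31e-05), although on slide 1 alone it did not pass (−0.42, adjusted p = 0.0603). Il1b was 1.69-fold lower (−0.76 ± 0.23, adjusted p = 0.04), with WT replicate 1 among the KO arrays. That call was lost without replicate 2, 3 or 4 of either vehicle group (log2 difference −0.57 to −0.81, adjusted p from 0.0601 to 0.102), and it was −0.33 on slide 1 (adjusted p = 0.49) and −1.18 on slide 2 (adjusted p = 0.0292). Il1a, the other interleukin 1 ligand, was 1.82-fold lower in KO vehicle cells (−0.86 ± 0.17, adjusted p = 0.00338). Its signal was dim, at 4.63 ± 0.30 in KO vehicle and 5.50 ± 0.20 in WT vehicle cells (SD). Whether the Il1a difference holds under other processing was not tested. The other 8 of the 10 genes ranged from −0.21 ± 0.07 for Il1rn to 0.19 ± 0.09 for Tlr3 and did not pass. Macrophages are a known source of Il1b and Il18. Of 15 macrophage markers, 10 were lower and 0 higher in KO vehicle than in WT vehicle cells. Of all tested genes, 6.16% were lower and 7.07% higher. Whether macrophages have a part in the Il1b and Il18 differences was not tested.

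The wider pathway was read from 126 genes listed as textbook members of its steps, of which 112 were tested. With TGF-β1, 78 of the 112 fell and 23 rose in KO cells, with a median of −0.67, where 35.9% of all tested genes fell and 46.6% rose, with a median of 0.10. With levels below background raised to the lowest signal that counts as above it, the KO median of the 112 was −0.60. In WT cells 70 fell and 19 rose, with a median of −0.31, where 27.3% of all tested genes fell and 41.3% rose, with a median of 0.08. The interaction passed for 62 in the negative and 22 in the positive direction, against 26.5% and 31.7% of all tested genes. KO and WT cells with TGF-β1 differed in 88 of the 112, 68 lower and 20 higher in KO, against 70.2% of all tested genes, 30.5% lower and 39.6% higher. With vehicle they differed in 20, 14 lower and 6 higher, against 13.2% of all tested genes, 6.16% lower and 7.07% higher. In both the number that differed was thus not far from the share over all genes, and it was the direction that was uneven. The lists below are read against the same shares.

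Of the 10 Toll-like receptors tested, 9 fell in KO and 7 in WT cells, where 35.9% and 27.3% of all tested genes fell. The 9 include Tlr2 and Tlr3, whose limits are given above, and Tlr5 and Tlr8, which were near background. Tlr5 was above background on 2 of 4 KO TGF-β1 arrays. Tlr8 was above background on 0 of 4 arrays in both TGF-β1 groups and on 2 of 4 in KO vehicle cells. Tlr1, the partner of Tlr2, fell by 2.40 ± 0.09 in KO (adjusted p = 1.38e-12) and by 0.93 ± 0.09 in WT cells (adjusted p = 2.5e-07). Tlr13, a receptor for bacterial ribosomal RNA, fell by 1.48 ± 0.06 in KO and by 0.81 ± 0.06 in WT cells. Tlr7, a receptor for single-stranded RNA, fell by a like amount in each, 0.79 ± 0.10 in KO and 0.84 ± 0.10 in WT cells, with a difference of 0.05 ± 0.15 (adjusted p = 0.80). Tlr9, a receptor for unmethylated DNA, rose by 0.36 ± 0.07 in KO and by 0.18 ± 0.07 in WT cells. Macrophages express most of these receptors. Of the 15 macrophage markers, 13 fell and 2 rose in KO cells, and 13 fell and 1 rose in WT cells. Whether macrophages have a part in the falls of these receptors was not tested.

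Among 9 accessory proteins, 6 fell and 2 rose in KO cells and 5 fell and 1 rose in WT cells, where 82.5% of all tested genes changed in KO and 68.6% in WT cells. Lbp, which hands lipopolysaccharide to Cd14, averaged 6.04 ± 0.19 in KO TGF-β1 and 10.31 ± 0.06 in KO vehicle cells, against 8.79 ± 0.02 in WT TGF-β1 and 10.56 ± 0.11 in WT vehicle cells (SD, n = 4 each). This was a 19.2-fold fall in KO (adjusted p = 4.54e-16) and a 3.41-fold fall in WT cells (adjusted p = 4.15e-11). Cd14, the co-receptor of Tlr4, fell by 1.31 ± 0.05 in KO and by 0.27 ± 0.05 in WT cells. Ly96, the protein that binds lipopolysaccharide together with Tlr4, rose by 0.37 ± 0.06 in KO cells (adjusted p = 4.2e-05) and in WT cells gave 0.00 ± 0.06 (adjusted p = 0.995). The lipopolysaccharide receptor components thus did not all move one way in KO cells: Lbp, Cd14 and Tlr4 fell and Ly96 rose.

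The 21 adaptors and kinases were evenly split, with 11 that fell and 8 that rose in each genotype and medians of −0.16. The 19 that changed stand beside 82.5% of all tested genes in KO and 68.6% in WT cells. In KO cells the kinases Irak4 and Irak1, which Myd88 recruits, fell by 0.80 ± 0.06 and 0.69 ± 0.04, while Irak2, a related kinase of the same complex, rose by 0.83 ± 0.06. Map3k7, which encodes the kinase TAK1 that TGF-β receptors also use, rose by 1.00 ± 0.06 in KO (adjusted p = 5.33e-10) and by 0.46 ± 0.06 in WT cells (adjusted p = 9.05e-06). Of 9 NF-κB and IRF transcription factors, 6 fell and 0 rose in KO cells, and 5 fell and 1 rose in WT cells, where 35.9% and 27.3% of all tested genes fell. Relb fell by 1.37 ± 0.04 and Irf7 by 1.92 ± 0.22 in KO cells, against 0.54 ± 0.04 and 0.90 ± 0.22 in WT cells, while Rela, the main transactivating subunit, gave 0.07 in KO cells and did not pass.

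Inhibitors of the pathway fell in 14 of 20 cases and rose in 4 in KO cells, against 10 that fell and 2 that rose in WT cells. The share that changed was near that of all tested genes, 82.5% in KO and 68.6% in WT cells, of which 35.9% and 27.3% fell. This list shares Il1rn, Il1r2, Il18bp and Sigirr with the ligand and receptor lists. Nfkbia, the NF-κB inhibitor that NF-κB itself induces, fell by 1.37 ± 0.04 in KO and by 0.93 ± 0.04 in WT cells. Not every inhibitor fell in both genotypes. Tnfaip3, a ubiquitin-editing brake on NF-κB, gave −0.11 ± 0.05 in KO cells (adjusted p = 0.071) and fell by 1.16 ± 0.05 in WT cells (adjusted p = 9.16e-11), a difference of 1.05 ± 0.08 (adjusted p = 3.07e-08). Bcl3 and Socs3 fell by 0.63 ± 0.07 and 0.42 ± 0.06 in KO cells and rose by 0.93 ± 0.07 and 1.00 ± 0.06 in WT cells.

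Of 11 inflammasome and processing genes tested, 10 fell and 1 rose in KO cells, and 8 fell and 0 rose in WT cells, where 35.9% of all tested genes fell in KO and 27.3% in WT cells. Casp1, the protease that activates interleukins 1β and 18, fell by 1.86 ± 0.07 in KO (adjusted p = 1.03e-12) and by 0.96 ± 0.07 in WT cells (adjusted p = 8.23e-09). Its adaptor Pycard fell by 1.08 ± 0.06 in KO and by 0.27 ± 0.06 in WT cells. In KO cells with TGF-β1 the Il1b signal was therefore higher, and the Casp1 signal lower by 1.02 ± 0.07 (adjusted p = 3.63e-09), than in WT cells with TGF-β1. Nlrp3 was not well above background throughout any group and was not tested.

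Genes known to be induced by interleukin 1 and Toll-like receptors showed the widest spread: 16 of 22 fell and 5 rose in each genotype, with medians of −1.51 in KO and −0.76 in WT cells, where 35.9% and 27.3% of all tested genes fell. Cxcl2, counted as a fall in KO cells, was above background on 0 of 4 arrays in both TGF-β1 groups. With its KO TGF-β1 level raised to the lowest signal that counts as above background, the KO median was −1.24. The neutrophil chemokine Cxcl5 averaged 5.21 ± 0.29 in KO TGF-β1 and 12.56 ± 0.09 in KO vehicle cells, against 10.25 ± 0.03 in WT TGF-β1 and 12.97 ± 0.14 in WT vehicle cells (SD, n = 4 each). It fell 163-fold in KO (adjusted p = 8.71e-17) and 6.61-fold in WT cells (adjusted p = 2.03e-11). Cxcl1, Saa3 and Mmp3, a chemokine, an acute phase protein and a matrix protease, fell 103-fold, 67.4-fold and 23.4-fold in KO and 6.75-fold, 3.24-fold and 2.51-fold in WT cells. In KO TGF-β1 cells the Cxcl1 signal was dim, at 4.97 ± 0.31 (SD, n = 4), as was that of Cxcl5. How far the fold sizes of Cxcl1 and Cxcl5 depend on the background correction was not tested. The 5 targets that rose in KO cells were Ptgs2, Lif, Il6, Ccl20 and Mmp13, and whether Il1b has a part in this was not tested. Ccl20 and Mmp13 rose by 0.64 ± 0.11 and 0.57 ± 0.07 in KO cells. In WT cells Ccl20 averaged 6.25 with TGF-β1 and 5.58 with vehicle, and Mmp13 9.97 with TGF-β1 and 8.91 with vehicle. Ptgs2, the inducible enzyme of prostaglandin synthesis, rose 7.0-fold in KO (2.81 ± 0.06, adjusted p = 2.64e-15) and 1.23-fold in WT cells (0.29 ± 0.06, adjusted p = 0.000523). The cytokine Lif rose by 2.22 ± 0.10 in KO cells (adjusted p = 1.31e-11) and fell by 0.71 ± 0.10 in WT cells (adjusted p = 1.46e-05), and Il6 rose by 1.03 ± 0.06 in KO and by 0.51 ± 0.06 in WT cells.

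**Figure D4:**
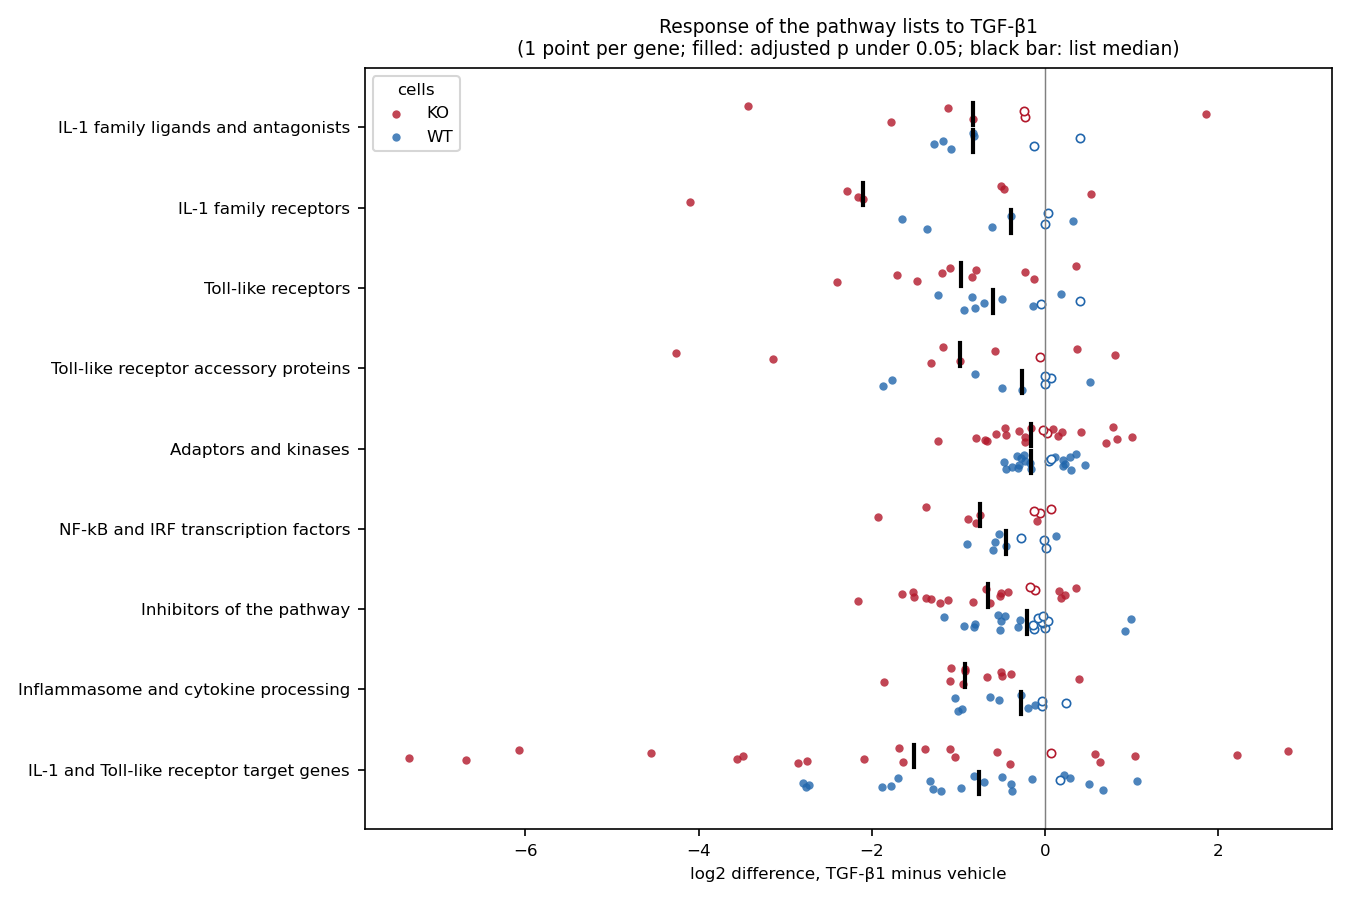
Log2 difference, TGF-β1 minus vehicle (horizontal axis), of each tested gene of 9 pathway lists (rows), with KO cells above WT cells; filled points have an adjusted p under 0.05 and black bars are list medians. Target genes spread widest, down to −7.35 for Cxcl5 and up to 2.81 for Ptgs2 in KO cells, and adaptors and kinases stay nearest 0.

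Across the 16 arrays the tested genes with the signal most like Il33 by Pearson r were Rcan2, Tgfbr3 and C1qtnf7 (r = 0.999 for Rcan2 and 0.998 for the others). Tgfbr3 encodes a TGF-β co-receptor. For Il1r1 they were Col28a1, Dapk1 and Klhl24 (r of 0.997), for Tlr4 Calcrl, Sparcl1 and Lgmn (0.994 to 0.997), and for Il18 Fabp4, Lsr and Crybg1 (0.995 to 0.998). For Il1rl1 they were Serpina3b, Fgfr4 and Bche (0.991 to 0.992) and for Il1rn Cyb561d1, Camk1g and Cyfip2 (0.990 to 0.996). Likeness was lower for Il1b, with Sh3bgrl2, Arntl and Rin3 (0.933 to 0.946), for Myd88, with Emilin2, Sardh and Cradd (0.954 to 0.958), for Tlr3, with Klf3, Dnajc28 and Cdkn2c (0.935 to 0.952), and for Tlr2, with Pfkfb4, Cdkn2aipnl and Klk1b8 (0.906 to 0.922). Among the 10 genes themselves Il33 and Il1r1 had r = 0.993 and Il33 and Tlr4 r = 0.977, while Il33 and Il1b had r = −0.72. The arrays fall into the 4 groups, so such values mainly restate the group means and are given as a description.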

How the data were processed

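RNA of 16 cultures was measured on 1-colour Agilent arrays. Per the file headers, the deposited values are spot intensity on a linear scale from Agilent Feature Extraction 11.0.1.1, already background-subtracted. A second table deposited by the authors gives log2 values of 9933 probes, brighter meaning higher and not centred per probe, whose normalization and selection are not given in the sources used here. It holds 7 of the 10 genes and served as an alternative. Its column medians were 6.38 to 6.39 in KO TGF-β1, 6.57 to 6.59 in KO vehicle, 6.47 to 6.49 in WT TGF-β1 and 6.59 to 6.62 in WT vehicle.

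From the intensities, log2 values were shifted so that each array's 75th percentile matched, spots of a probe averaged and 27 probes with outlier marks left out. Probes were kept if some group had all 4 of its arrays well above background. Probes were named by unversioned transcript accession through a GRCm38.p6 reference, which gave names and gene order only because the array design was drawn on mm9; of 33888 kept probes 22709 were named. The brightest kept probe stood for a gene. The 10 genes had 17 probes, 16 of them kept, and 6 genes had several.

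limma 3.58.1 in R 4.3.3 fitted 1 coefficient per group over all 16 arrays, with 2-sided tests adjusted over 15394 genes (Benjamini-Hochberg) in each of 5 comparisons. The fitting code was tested on simulated data. The number of arrays limits the precision. Besides the 10 genes, up to 4 genes per list and comparison with the largest called difference, and the 3 most like each of the 10, were named; other list genes are given as values. The 10 genes and the lists were chosen with earlier results of these data known. The series states 4 independent experiments per group. Same-numbered arrays had correlated deviations of −0.03 to 0.22, and 8 of 24 pairs passed 0.1. These values do not settle whether arrays were paired. Numbers were not used as pairs in the main fit, and a fit with replicate number as a block is among the alternatives. Each of 2 slides held 2 arrays of every group. Alternatives were normexp with offset 50, quantile normalization, the authors' value table, no filter or a stricter one, slide or replicate as a block, each slide alone, the mean over probes, the compared groups alone and each array left out.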

Additional observations from a re-analysis of the deposited data

Results flagged for a closer look

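Of 40 sets of 4 arrays (10 genes in 4 groups), 4 held an array whose gap to its neighbours exceeded Dixon's critical value, and chance alone gives about 1 in 20. Il1rl1 in KO TGF-β1 replicate 3 was 7.22, where the others were 6.64 to 6.74. Il1r1 in WT vehicle replicate 2 was 12.08, where the others were 11.93 to 11.95. Tlr3 in KO vehicle replicate 3 was 5.88, where the others were 5.68 to 5.70, and in WT TGF-β1 replicate 4 it was 5.24, where the others were 5.57 to 5.61. No single array accounts for these 4 gaps, which fell in 4 groups.

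For 9 of 10 genes the response to TGF-β1 differed between KO and WT cells by the interaction term (limma, adjusted p under 0.05). The KO response minus the WT response was 3.03 for Il1b, −2.60 for Il33, −1.49 for Il1r1, −1.0 for Tlr4, −0.80 for Tlr3, −0.69 for Il18, −0.63 for Il1rl1, −0.45 for Myd88 and −0.31 for Il1rn. Both genotypes fell for Il33, Il1r1, Tlr4, Il18, Il1rl1 and Il1rn. Il1b and Myd88 changed in opposite directions.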

How the results depend on the processing

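Of 50 log2 differences (10 genes in 5 comparisons), 38 kept their side of the threshold under every alternative that gave a value. Of these 38, 32 also kept their direction, and 6 that were not called took both signs: Il33, Il1r1, Il1rl1 and Tlr4 between KO and WT vehicle cells, Tlr3 in the WT response and Tlr2 in the interaction. Over 1320 values 40 lost a call, 11 gained one and 0 called values turned sign. The counts of changed genes were stable apart from KO vehicle against WT vehicle. There the count of 2 became 5 with normexp, 4 with quantile normalization, 1 without a filter or with the compared groups alone, and 0 on slide 1 alone. With only probes above background on all 16 arrays it was 1, but Il1b had no such probe and was not tested. Leaving out 1 array at a time gave 1 to 3 for KO vehicle against WT vehicle, 9 to 10 for the KO response, 8 to 9 for the WT response, 9 to 10 for KO against WT with TGF-β1 and 9 to 9 for the interaction. With replicate number as a block the counts were 10, 9, 3, 10 and 9 for the KO response, the WT response, KO against WT with vehicle, KO against WT with TGF-β1 and the interaction. Of 16 arrays, 13 correlated best with their own number, a hint from the data and not the design. Replicates 1 and 2 of every group were on slide 1 and replicates 3 and 4 on slide 2. Arrays that share a number therefore also share a slide, and the part of the slide in this match was not tested. Among the authors' deposited values, 7 of 7 genes passed in every comparison except KO against WT with vehicle, where 3 did. Normexp lowered the sizes for dim probes: the KO response was 0.95 for Il1b and −0.15 for Tlr3. Quantile normalization moved the median of all genes in the KO response to −0.01, where it was 0.10, and in the authors' table it was −0.36. For other calls that were lost the cause was not tested. Signal near background limits the values of Il1b, Il1a, Tlr3, Tlr5, Tlr8, Il1rl2, Il18r1 and Cxcl2. Dim signal in KO TGF-β1 cells also limits the fold sizes of Cxcl1 and Cxcl5.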
